A study of Mus musculus with 16 samples.

Results

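A set of 61 Illumina probes in mouse embryonic stem cells began to move upward within hours of E1A induction, stayed up to 48 h, and ended above a control harvested at 48 h. Members were chosen on group means of normalized log2 intensity. At 12, 24 and 48 h each mean had to lie at least 0.6 above the 0 h mean, the 48 h mean at least 0.4 above that of the 48 h control, and the control no lower than 0.3 below 0 h. Of 25697 probes on the array, 13974 were detected on at least 2 arrays and could be chosen, so every member passed that filter. The 61 probes stand for 52 named genes and 6 probes without a gene symbol, with Plekhg2, Anxa3 and Cdh3 present through 2 probes each. Because the differences of 12, 24 and 48 h from 0 h and of 48 h from its control chose the members, they are given as descriptions, and changes of members are tested only among 3, 6 and 9 h, whose arrays the rule did not use.

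E1A is the early protein of adenovirus that binds the retinoblastoma family of cell cycle regulators and the p300 and CBP acetyltransferases, and through them alters transcription of host genes. It is known for releasing E2F transcription factors, for pushing cells into S phase and, in several differentiated cell types, for favouring epithelial genes. Among the host gene families described here, claudins build tight junctions, Wnt and insulin pathways carry growth signals, cyclins and their inhibitors set the pace of the cell cycle, and AP-1 is a transcription factor of early growth and stress responses.

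Total RNA came from embryonic stem cells of a mixed C57BL/6, C3H and CD1 background. The groups were 3, 6, 9, 12, 24 and 48 h of E1A induction, the 0 h state before it, and a 48 h cherry control, with 2 samples in each and 1 array per sample. In the labels the control carries the treatment text of the other groups, and nothing states how E1A or cherry was delivered, whether the control cells carried E1A, or whether samples of a group came from separate cultures. A p-value here thus reflects only how these samples vary, which may be technical variation. Between 12124 and 12639 probes were detected per array at a median intensity of 122 to 136, and both arrays of each group correlated at 0.995 to 0.997 across probes. The median SD between the arrays of a group was 0.08 for members and 0.08 for all probes tested (log2 scale).

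The identity of the cells was checked on markers. All 6 embryonic stem cell markers (Pou5f1, Nanog, Sox2, Zfp42, Esrrb and Klf4) were detected on all 16 arrays. Their mean level was 10.6 to 10.7 at 48 h of induction, against 11.3 to 11.4 in the 48 h control. At 0 h it was 11.07 to 11.10, so the control lay above 0 h and the induced samples below it. Of 6 feeder fibroblast markers 3 passed the detection filter, with Col1a1 detected on 2 arrays and Dcn on 3. Of 4 trophectoderm markers 2 passed. Krt7, a simple-epithelium keratin, averaged 7.55 at 48 h and 6.87 in the 48 h control, with 5.67 at 0 h, while Cdx2 was detected on 3 arrays. The part of these shifts in the members' values was not tested, and in bulk RNA a larger share of cells with a gene on cannot be told apart from more RNA per cell.

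The proximal promoters of 6 members are shown because these genes were among the earliest or the highest at 48 h. Rec8, Id4, Fos, Jun and Irs2 each passed the 0.6 difference at 3 h, and Cldn4 had one of the latest courses and the second highest difference at 48 h. Each run is the 250 bases before the annotated start, read 5′ to 3′ on the gene's strand, from RefSeq on build GRCm38.p6. Capitals mark matches, on either strand, to the searched letters: TGANTCA for AP-1, TGACGTCA for the cyclic AMP response element, TTTCCCGC or TTTGGCGC for E2F, CACGTG for the E-box, GTAAACA for the forkhead factors, TATAAA for the TATA box, and CCAAT for the box of that name.
Rec8, chr14:55617916-55618165, plus strand: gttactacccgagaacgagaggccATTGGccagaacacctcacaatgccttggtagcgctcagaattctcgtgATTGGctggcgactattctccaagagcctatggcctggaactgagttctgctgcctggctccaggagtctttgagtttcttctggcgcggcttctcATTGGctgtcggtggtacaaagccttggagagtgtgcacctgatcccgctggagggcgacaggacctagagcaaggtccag
Id4, chr13:48260866-48261115, plus strand: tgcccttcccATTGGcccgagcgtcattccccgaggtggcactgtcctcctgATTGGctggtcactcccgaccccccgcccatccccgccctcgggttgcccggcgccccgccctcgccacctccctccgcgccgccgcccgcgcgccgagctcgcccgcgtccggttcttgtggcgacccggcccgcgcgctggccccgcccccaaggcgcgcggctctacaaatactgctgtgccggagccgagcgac
Fos, chr12:85473640-85473889, plus strand: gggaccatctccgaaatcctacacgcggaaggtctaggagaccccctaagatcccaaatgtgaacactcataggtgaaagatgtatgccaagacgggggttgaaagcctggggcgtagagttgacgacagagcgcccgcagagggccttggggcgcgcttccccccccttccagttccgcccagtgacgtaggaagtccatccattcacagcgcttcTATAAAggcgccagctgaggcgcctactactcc
Jun, chr4:95052223-95052472, minus strand: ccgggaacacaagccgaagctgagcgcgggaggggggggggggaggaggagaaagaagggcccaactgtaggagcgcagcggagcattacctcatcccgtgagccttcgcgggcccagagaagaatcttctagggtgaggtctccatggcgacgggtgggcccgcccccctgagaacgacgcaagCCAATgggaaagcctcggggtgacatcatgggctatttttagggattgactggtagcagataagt
Irs2, chr8:11008930-11009179, minus strand: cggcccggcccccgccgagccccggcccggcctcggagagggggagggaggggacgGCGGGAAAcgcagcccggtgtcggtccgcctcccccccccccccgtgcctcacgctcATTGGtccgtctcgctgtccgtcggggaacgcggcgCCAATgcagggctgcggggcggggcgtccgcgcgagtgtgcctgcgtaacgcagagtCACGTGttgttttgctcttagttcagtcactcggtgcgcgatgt
Cldn4, chr5:134946935-134947184, minus strand: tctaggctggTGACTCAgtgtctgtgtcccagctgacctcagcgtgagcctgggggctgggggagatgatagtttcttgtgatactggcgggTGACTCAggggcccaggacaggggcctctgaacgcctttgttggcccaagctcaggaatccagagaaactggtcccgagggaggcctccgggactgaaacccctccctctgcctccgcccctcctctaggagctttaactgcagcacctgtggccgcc

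The Rec8 window held 3 CCAAT boxes, the Id4 window 2 and the Jun window 1. The Fos window held a TATA box at -33 to -28 from the start. Irs2 held 1 E2F element, 1 E-box and 2 CCAAT boxes, and Cldn4 held 2 AP-1 elements. A sequence was listed for 40 of the 52 member genes, of which 6 have more than 1 listed start. CCAAT occurred for 50% of these 40 genes against 37.5% of all 27025 genes with a RefSeq promoter, and the E-box for 17.5% against 6.86%. The AP-1 element occurred in 5% against 7.82%, the cyclic AMP response element in 5% against 1.77%, the E2F element in 2.5% against 1.51%, and TATAAA in 7.5% against 14.3%. The forkhead letters were found for 0 of the 40 genes, against 3.54% of all genes. A gene was counted when the 250 bases before any of its listed starts held a match, among members and among all genes alike. These shares describe letters only, with no test, and no match in the 6 printed windows overlapped another.

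The members differed in when they started. By 3 h, 12 probes lay at least 0.6 above 0 h, namely Rec8, Id4, Irs2, Fos, Efnb1, Ddit4, Jun, both Plekhg2 probes, Cyp1b1, Plec and ILMN_1220244. A further 22 first passed this mark at 6 h, 15 at 9 h and 12 at 12 h. At 3 h both arrays lay above both 0 h arrays for 44 members, a separation that 23% of all probes tested also showed. The same held for 58 members at 6 h, with 27.9% of all probes, and for 61 at 9 h, with 27.9%. The rule used the 0 h arrays, so nothing is read from these separations. The median difference from 0 h was 0.24 at 3 h (log2). By 6 h it was 0.62, by 9 h 0.76, by 12 h 0.83, by 24 h 1.12 and by 48 h 1.47. Against a final difference set to 100%, the median member had covered 16.1% by 3 h, 42.6% by 6 h, 51.0% by 9 h, 57.9% by 12 h and 73.7% by 24 h.

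**Figure D1:**
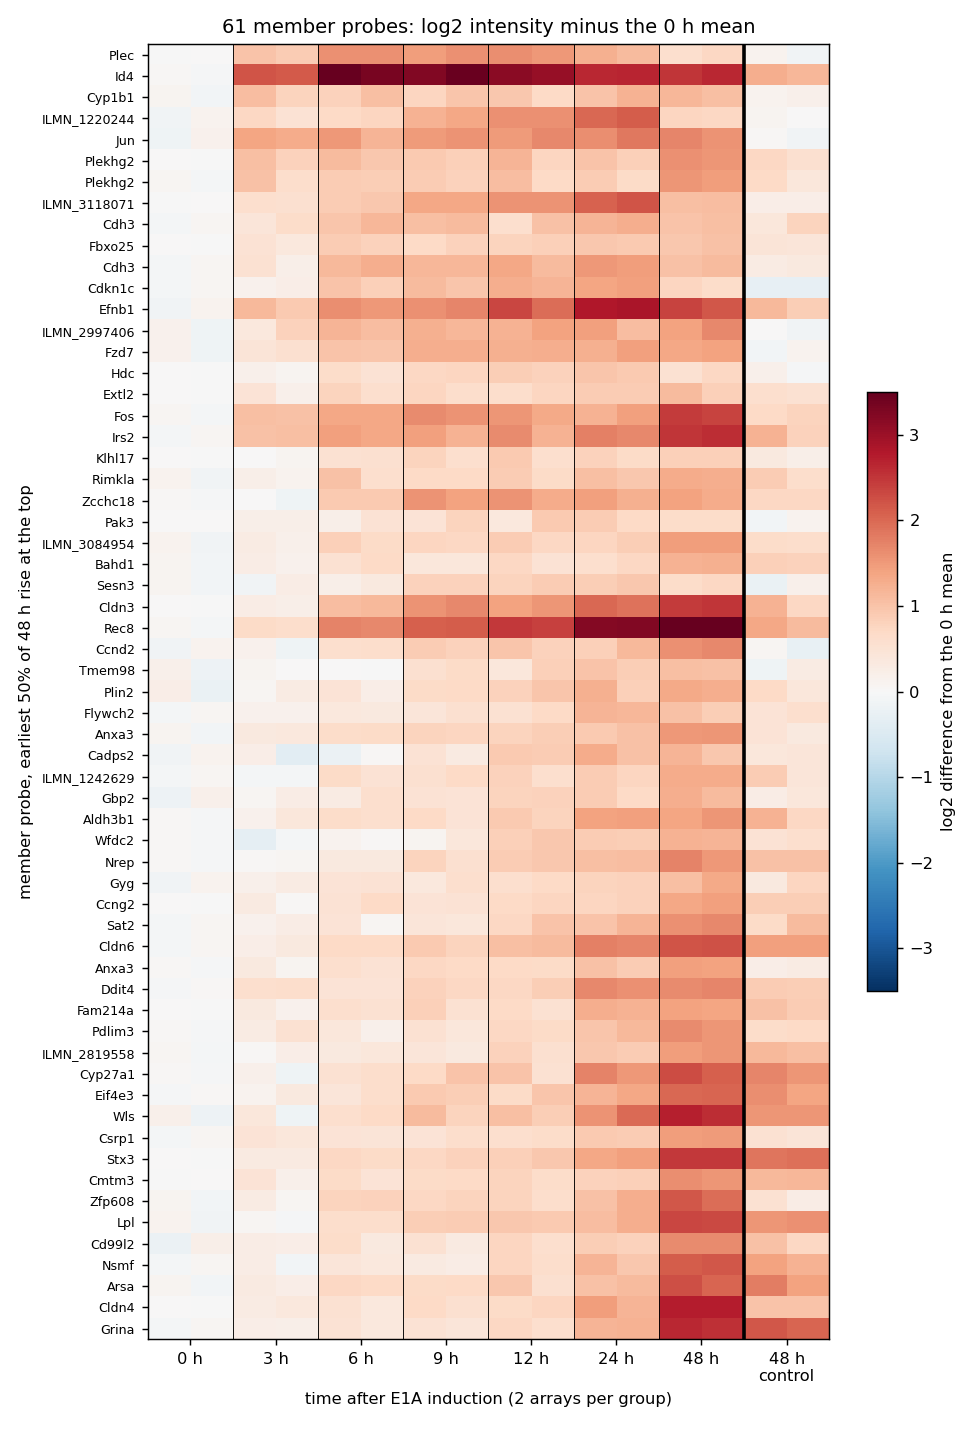
Log2 intensity minus the 0 h mean for the 61 member probes (down the page, earliest to reach 50% of the 48 h difference at the top) on each of the 16 arrays (across, by group). The upper probes are coloured by 3 h, the lower ones mainly at 24 and 48 h, and the 48 h control columns are paler than the 48 h columns.

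Timing relative to the 48 h level was summarised as the time at which 50% of the 48 h difference was reached, by straight lines between the sampled times. The median was 8.76 h, with quartiles of 4.18 and 13.6 h and a range of 1.05 h (Plec) to 25.6 h (Grina). This time was under 6 h for 25 members, 6 to 12 h for 17, 12 to 24 h for 14, and 24 h or later for 5, which were Cldn4, Grina, Nsmf, Arsa and Cd99l2. A time under 3 h, reached by 9 members, lies before the first sampled time after 0 h and rests on interpolation alone. For a member that peaked before 48 h, the 48 h difference is smaller than its peak, so its time is earlier than one taken against the peak. Plec had fallen from a 6 h difference of 1.60 to a 48 h difference of 0.66. ILMN_1220244 had a time of 1.80 h, yet its difference grew from 0.61 at 3 h to 2.05 at 24 h. Such early times do not measure the pace of the rise.

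The final level was usually the highest. The group mean was highest at 48 h for 45 members, at 24 h for 13, at 6 h for 2 and at 9 h for 1. At 48 h 51 members lay at least 1 log2 unit above 0 h and 17 at least 2. Both 48 h arrays lay above both 24 h arrays for 39 members, where 33.3% of all probes tested did so, and below them for 12, where 35.3% of all probes tested did so. Those 12 were Id4, Efnb1, both Cdh3 probes, Flywch2, Cdkn1c, Sesn3, Plec, Pak3, Hdc, ILMN_3118071 and ILMN_1220244. The rule used the 24 and 48 h arrays, so nothing is read from the counts of 39 and 12. The median level at 0 h was 6.46, against 7.12 for all probes tested. The rule subtracted the 0 h mean, which favours low starting values, so nothing is read from this comparison. At 0 h 53 members were detected on both arrays, 3 (Jun, ILMN_2819558 and 1 Cdh3 probe) on 1 array, and 5 (Cldn3, Zfp608, Sat2, Aldh3b1 and Gbp2) on neither. Of all 13974 probes tested, 1315 were detected on neither 0 h array. From 6 h on all 61 were detected on both arrays of every induced group. Differences of those 5 from 0 h in the medians and counts above rest on background-level values, and those of the 3 rest on them in part.

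**Figure D2:**
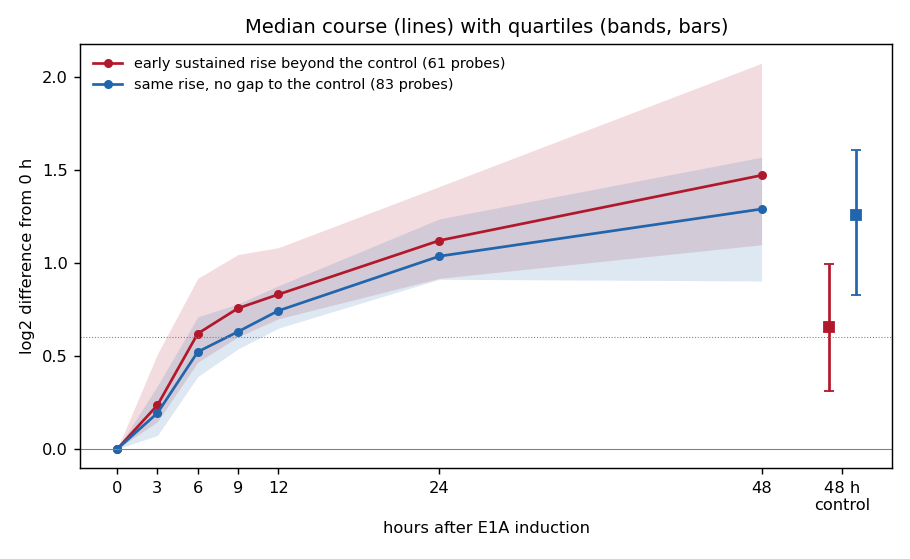
Median log2 difference from 0 h by hours of induction for the 61 members and for the 83 probes with a like rise but no gap to the control, with quartiles as bands and the 48 h control as separate points with quartile bars. Members reach a median of 1.47 at 48 h against 0.65 in the 48 h control, while the 83 other probes reach 1.29 and 1.26.

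The steps between 3, 6 and 9 h were tested with limma across all 13974 probes, with Benjamini-Hochberg adjustment and a threshold of 0.05. Between 3 and 6 h 22 members rose and 0 fell, and 1.57% and 0.988% of all probes did so. Between 3 and 9 h 34 members rose and 0 fell, and 3.4% and 2.52% of all probes did so. Between 6 and 9 h 0 members rose and 0 fell by this test, when 0.0143% and 0.0358% of all probes did so, although 15 members and 1091 of all probes had an unadjusted limma p under 0.05 for that step. Both 6 h arrays lay above both 3 h arrays for 46 members and in 23.1% of all probes, both 9 h arrays above both 3 h arrays for 56 and in 25.1%, and both 9 h arrays above both 6 h arrays for 27 and in 19.6%. The 3 to 6 h changes that passed ran from 0.35 to 1.27, and the 3 to 9 h changes from 0.32 to 1.56 (log2). Cldn3 and Zfp608 are in both counts although neither was detected on a 3 h array. In all 36 members passed in at least 1 of these comparisons and 20 in both, so 25 were called in neither.

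The size of these counts rested on single arrays. The 3 to 6 h count was 12 without the first 3 h array, 6 without the second, 7 without the first 6 h array and 9 without the second. The 3 to 9 h count was 21 without the second 3 h array, 19 without the first 9 h array and 20 without the second. A positive 3 to 6 h difference was seen in 57 members and 50.1% of all probes, a positive 3 to 9 h difference in 59 and 49.8%, and a positive 6 to 9 h difference in 43 and 50.4%. The changes called between 3 and 9 h included Zcchc18, a zinc-knuckle protein gene, at 1.56 ± 0.11 (SE, limma adjusted p = 4.17e-06), Rec8 at 1.46 ± 0.09 (adjusted p = 1.69e-06) and Id4 at 1.17 ± 0.10 (adjusted p = 4.9e-05).

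**Figure D3:**
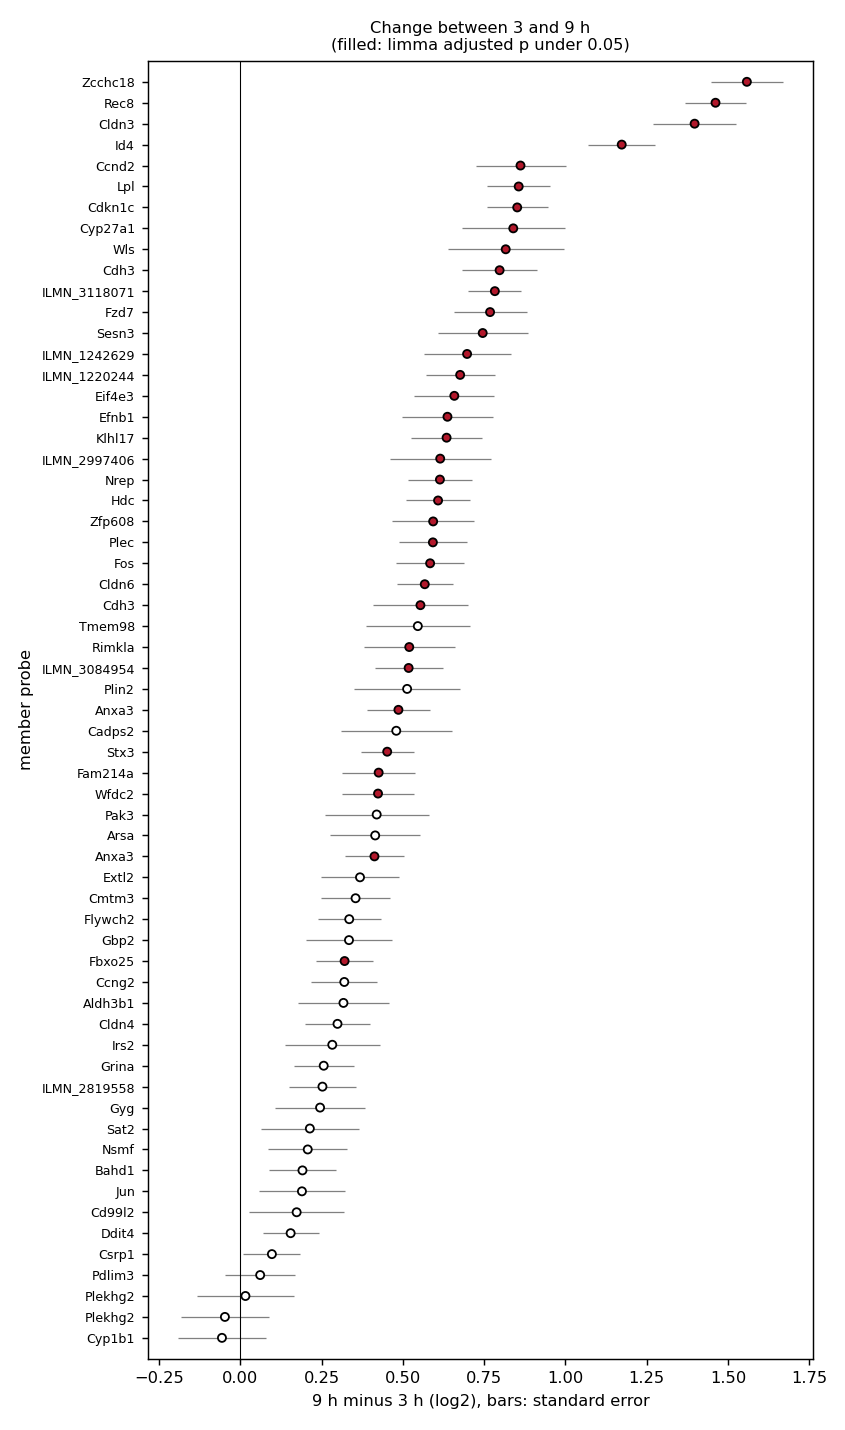
Log2 difference of 9 h minus 3 h for each of the 61 member probes with its standard error, filled where the limma adjusted p was under 0.05. The 34 filled points lie to the right of 0, and 59 of the 61 points are positive.

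Transcription regulators included both core parts of AP-1, the dimer of Fos and Jun proteins that answers growth and stress signals. Fos read 5.66 and 5.51 at 0 h, 6.63 and 6.61 at 3 h, 6.95 and 6.95 at 6 h, 7.24 and 7.16 at 9 h, 7.12 and 6.90 at 12 h, 6.79 and 7.02 at 24 h, 8.02 and 7.96 at 48 h, and 6.29 and 6.37 in the 48 h control. Both 3 h arrays already lay above both 0 h arrays, the means from 6 to 24 h stayed close together, and Fos stood 2.40 ± 0.10 above 0 h at 48 h (log2, SE) and 1.66 above the 48 h control. Between 3 and 9 h Fos rose by 0.58 ± 0.10 (limma adjusted p = 0.00499). Jun read 5.10 and 5.42 at 0 h, 6.63 and 6.56 at 3 h, 6.78 and 6.45 at 6 h, 6.74 and 6.83 at 9 h, 6.76 and 6.94 at 12 h, 6.88 and 7.10 at 24 h, 6.96 and 6.83 at 48 h, and 5.31 and 5.15 in the 48 h control. Jun was near its final level by 3 h, and its control arrays overlapped those of 0 h. From 3 to 9 h Jun differed by 0.19 ± 0.13, which did not pass (limma adjusted p = 0.475). At 48 h Jun stood 1.63 ± 0.13 above 0 h and 1.66 above the control. As Jun was detected on only 1 array at 0 h, its differences from 0 h rest partly on a background-level value. Leaving out the first or second 0 h array gave 1.47 or 1.79 at 48 h.

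Id4 encodes an inhibitor of basic helix-loop-helix transcription factors, one that lacks a DNA-binding region of its own. It read 5.26 and 5.18 at 0 h, 7.42 and 7.38 at 3 h, 8.78 and 8.55 at 6 h, 8.47 and 8.67 at 9 h, 8.39 and 8.28 at 12 h, 7.87 and 7.89 at 24 h, 7.72 and 7.85 at 48 h, and 6.49 and 6.38 in the 48 h control. Id4 had the steepest start of the members, at 4.52-fold its 0 h level by 3 h and 10.9-fold at 6 h, and then declined to 5.91-fold at 48 h, against 2.32-fold in the 48 h control. Between 3 and 6 h it rose by 1.27 ± 0.10 (limma adjusted p = 4.08e-05). Zfp608, a zinc-finger protein gene, was below the detection limit on both arrays at 0 h (not well above background), and its 48 h mean was at least 3.18-fold higher. It was not detected at 3 h either, and its 6 h level was at least 1.30-fold that of 3 h. The limma test (adjusted p = 0.0178) concerns a difference of 0.63 (log2) from background-level 3 h values, not this bound. Bahd1, which encodes a heterochromatin protein, passed between 3 and 6 h with 0.41 ± 0.10 (limma adjusted p = 0.0475) but not between 3 and 9 h, at 0.19 (adjusted p = 0.327), and it sat just inside the control gap at 0.41.

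Rec8, set here beside the cell cycle genes, had the largest 48 h difference from 0 h in the set. Rec8, the meiotic cohesin subunit that holds sister chromatids together, read 7.54 and 7.38 at 0 h, 8.12 and 8.08 at 3 h, 9.19 and 9.15 at 6 h, 9.55 and 9.57 at 9 h, 9.93 and 9.84 at 12 h, 10.67 and 10.69 at 24 h, 11.11 and 11.09 at 48 h, and 8.81 and 8.58 in the 48 h control. It climbed at every sampled time without overlap between neighbouring groups, and ended 3.64 ± 0.09 above 0 h (log2, SE), a 12.5-fold difference. The level at 48 h was 5.30-fold that of the 48 h control, which was itself at 2.36-fold the 0 h level.

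Ccnd2 encodes a D-type cyclin that drives entry into the cell cycle. It read 5.65 and 5.89 at 0 h, 5.91 and 5.63 at 3 h, 6.35 and 6.39 at 6 h, 6.67 and 6.59 at 9 h, 6.75 and 6.57 at 12 h, 6.60 and 6.90 at 24 h, 7.36 and 7.44 at 48 h, and 5.84 and 5.52 in the 48 h control. Ccnd2 had not moved at 3 h, rose by 0.86 ± 0.14 between 3 and 9 h (limma adjusted p = 0.00243), and had control arrays at the 0 h level. Its 48 h level was 3.09-fold that of 0 h and 3.28-fold that of the 48 h control. Cdkn1c, a cyclin-dependent kinase inhibitor expressed from the maternal allele, read 8.57 and 8.71 at 0 h, 8.80 and 8.87 at 3 h, 9.63 and 9.47 at 6 h, 9.75 and 9.62 at 9 h, 9.91 and 9.82 at 12 h, 10.03 and 10.08 at 24 h, 9.39 and 9.29 at 48 h, and 8.36 and 8.36 in the 48 h control. It peaked at 24 h at 2.66-fold the 0 h level, and it was the one member whose control arrays both lay below both 0 h arrays. Cdkn1c rose by 0.85 ± 0.09 between 3 and 9 h (limma adjusted p = 0.000253). Ccng2, an unconventional cyclin linked to cell cycle arrest, passed between 3 and 6 h with 0.43 ± 0.10 (limma adjusted p = 0.0389) and stood 1.39 above 0 h at 48 h.

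Insulin and growth factor signalling was represented by Irs2, the insulin receptor substrate that links the receptor to PI3 kinase. Irs2 read 6.15 and 6.26 at 0 h, 7.22 and 7.27 at 3 h, 7.63 and 7.55 at 6 h, 7.64 and 7.41 at 9 h, 7.87 and 7.43 at 12 h, 7.98 and 7.88 at 24 h, 8.72 and 8.78 at 48 h, and 7.41 and 7.01 in the 48 h control. It reached 2.06-fold the 0 h level at 3 h, 3.32-fold at 24 h and 5.85-fold at 48 h, against 2.01-fold in the 48 h control. Between 3 and 9 h its difference of 0.28 ± 0.15 did not pass (limma adjusted p = 0.303). Ddit4 and Sesn3, which encode stress-induced inhibitors of mTOR signalling, followed different courses. Ddit4 read 9.98 and 10.07 at 0 h, 10.62 and 10.65 at 3 h, 10.51 and 10.49 at 6 h, 10.84 and 10.74 at 9 h, 10.74 and 10.88 at 12 h, 11.70 and 11.63 at 24 h, 11.67 and 11.73 at 48 h, and 10.92 and 10.88 in the 48 h control, so it was above 0 h by 3 h and took a further step between 12 and 24 h. Sesn3 rose by 0.75 ± 0.14 between 3 and 9 h (limma adjusted p = 0.00649), and its control mean differed from 0 h by -0.02.

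Both Plekhg2 probes passed 0.6 at 3 h and ended 1.57 and 1.50 above 0 h. Pak3, a p21-activated kinase gene, ended 0.64 above 0 h with a control difference of 0.01. Neither gene passed between 3 and 9 h.

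The Wnt pathway had a ligand carrier and a receptor. Wls encodes the membrane protein that carries Wnt ligands to the cell surface, and it read 6.20 and 5.83 at 0 h, 6.41 and 5.87 at 3 h, 6.61 and 6.71 at 6 h, 7.12 and 6.79 at 9 h, 7.06 and 6.89 at 12 h, 7.60 and 7.99 at 24 h, 8.73 and 8.60 at 48 h, and 7.57 and 7.57 in the 48 h control. Its course was slow, and its arrays spread more than most, with a 3 to 9 h change of 0.82 ± 0.18 (limma adjusted p = 0.0159). Fzd7, a Frizzled Wnt receptor, read 9.15 and 8.86 at 0 h, 9.46 and 9.57 at 3 h, 9.99 and 9.98 at 6 h, 10.28 and 10.28 at 9 h, 10.24 and 10.28 at 12 h, 10.25 and 10.45 at 24 h, 10.35 and 10.41 at 48 h, and 8.91 and 9.14 in the 48 h control. It levelled off from 9 h on, at 2.39-fold at 12 h, 2.54-fold at 24 h and 2.60-fold at 48 h, while the 48 h control was at 1.02-fold of 0 h with overlapping arrays. Fzd7 rose by 0.77 ± 0.11 between 3 and 9 h (limma adjusted p = 0.00136).

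Tight junction genes were present through 3 claudins, the membrane proteins that seal the space between epithelial cells. Cldn4 read 9.36 and 9.32 at 0 h, 9.63 and 9.70 at 3 h, 9.86 and 9.71 at 6 h, 10.03 and 9.90 at 9 h, 10.00 and 10.10 at 12 h, 10.79 and 10.54 at 24 h, 12.08 and 12.10 at 48 h, and 10.35 and 10.33 in the 48 h control. By 24 h it had covered 48.1% of its 48 h difference, and it was at 6.73-fold the 0 h level at 48 h, against 2.00-fold in the 48 h control. Cldn3 lies next to Cldn4 on chromosome 5, with 0 protein-coding genes between them, and read 4.44 and 4.41 at 0 h, 4.69 and 4.63 at 3 h, 5.50 and 5.57 at 6 h, 6.01 and 6.10 at 9 h, 5.82 and 5.96 at 12 h, 6.44 and 6.33 at 24 h, 6.88 and 6.93 at 48 h, and 5.64 and 5.14 in the 48 h control. As it was not well above background at 0 h, its 48 h level was at least 3.41-fold higher. It was not detected at 3 h either, and against 3 h its level was at least 1.30-fold at 6 h and at least 1.87-fold at 9 h. The limma tests (adjusted p = 0.00331 and 6.18e-05) concern differences of 0.88 and 1.40 (log2) from background-level 3 h values, not these bounds. The Cldn4 change of 0.12 ± 0.10 between 3 and 6 h did not pass (limma adjusted p = 0.627), and the difference between the genes was not tested. Cldn6, a claudin of embryonic epithelia, read 8.54 and 8.66 at 0 h, 8.83 and 8.94 at 3 h, 9.31 and 9.29 at 6 h, 9.51 and 9.39 at 9 h, 9.64 and 9.72 at 12 h, 10.36 and 10.32 at 24 h, 10.80 and 10.82 at 48 h, and 10.03 and 10.04 in the 48 h control. Its means climbed at each sampled time, and the control had covered 65.0% of the 48 h difference, against 36.2% for Cldn4.

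Other adhesion and surface genes peaked before 48 h or came late. Efnb1, the ephrin-B1 ligand of Eph receptors, read 5.68 and 5.93 at 0 h, 6.93 and 6.72 at 3 h, 7.44 and 7.31 at 6 h, 7.41 and 7.52 at 9 h, 8.15 and 7.77 at 12 h, 8.60 and 8.65 at 24 h, 8.18 and 7.99 at 48 h, and 6.94 and 6.66 in the 48 h control. It was highest at 24 h, at 7.05-fold, and was at 4.86-fold the 0 h level at 48 h, against 1.99-fold in the control. Plec encodes plectin, which ties intermediate filaments to junctions, and read 8.43 and 8.46 at 0 h, 9.43 and 9.34 at 3 h, 10.05 and 10.05 at 6 h, 9.91 and 10.04 at 9 h, 10.07 and 9.96 at 12 h, 9.70 and 9.54 at 24 h, 9.04 and 9.16 at 48 h, and 8.57 and 8.31 in the 48 h control. It was highest at 6 to 12 h and declined after that, with control arrays around the 0 h level. A second Plec probe that passed the filter lay 1.29, 1.05 and 0.53 above 0 h at 12, 24 and 48 h. Its neighbour Grina on chromosome 15, with 1 protein-coding gene between them, was late where Plec was early. Grina, a gene of the NMDA receptor-associated family, read 9.35 and 9.50 at 0 h, 9.66 and 9.62 at 3 h, 9.92 and 9.80 at 6 h, 9.93 and 9.86 at 9 h, 10.14 and 10.02 at 12 h, 10.62 and 10.63 at 24 h, 12.05 and 11.98 at 48 h, and 11.60 and 11.47 in the 48 h control, and its control had covered 81.5% of the 48 h difference, the highest share among members.

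The 2 Cdh3 probes, for P-cadherin, stood 1.07 and 1.03 above 0 h at 48 h and were higher at 24 h, at 1.49 and 1.23. Another Cdh3 probe that passed the filter did not follow them, at -0.15 for 48 h minus 0 h. The 2 Anxa3 probes, for a membrane-binding annexin, ended 1.53 and 1.42 above 0 h, and both rose between 3 and 9 h (limma adjusted p = 0.0164 and 0.00918). Cd99l2, a gene for a CD99-related adhesion molecule, was late, with 1.65 at 48 h. Cmtm3 and Tmem98, which encode membrane proteins, ended 1.59 and 1.05 above 0 h, and Wfdc2, a secreted epithelial protein gene, ended 1.20 above it. Of these 3, Wfdc2 passed between 3 and 9 h at 0.42 ± 0.11 (limma adjusted p = 0.037). That change started from a dip, as Wfdc2 lay at -0.18 from 0 h at 3 h and at 0.24 at 9 h. It first passed 0.6 at 12 h.

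**Figure D4:**
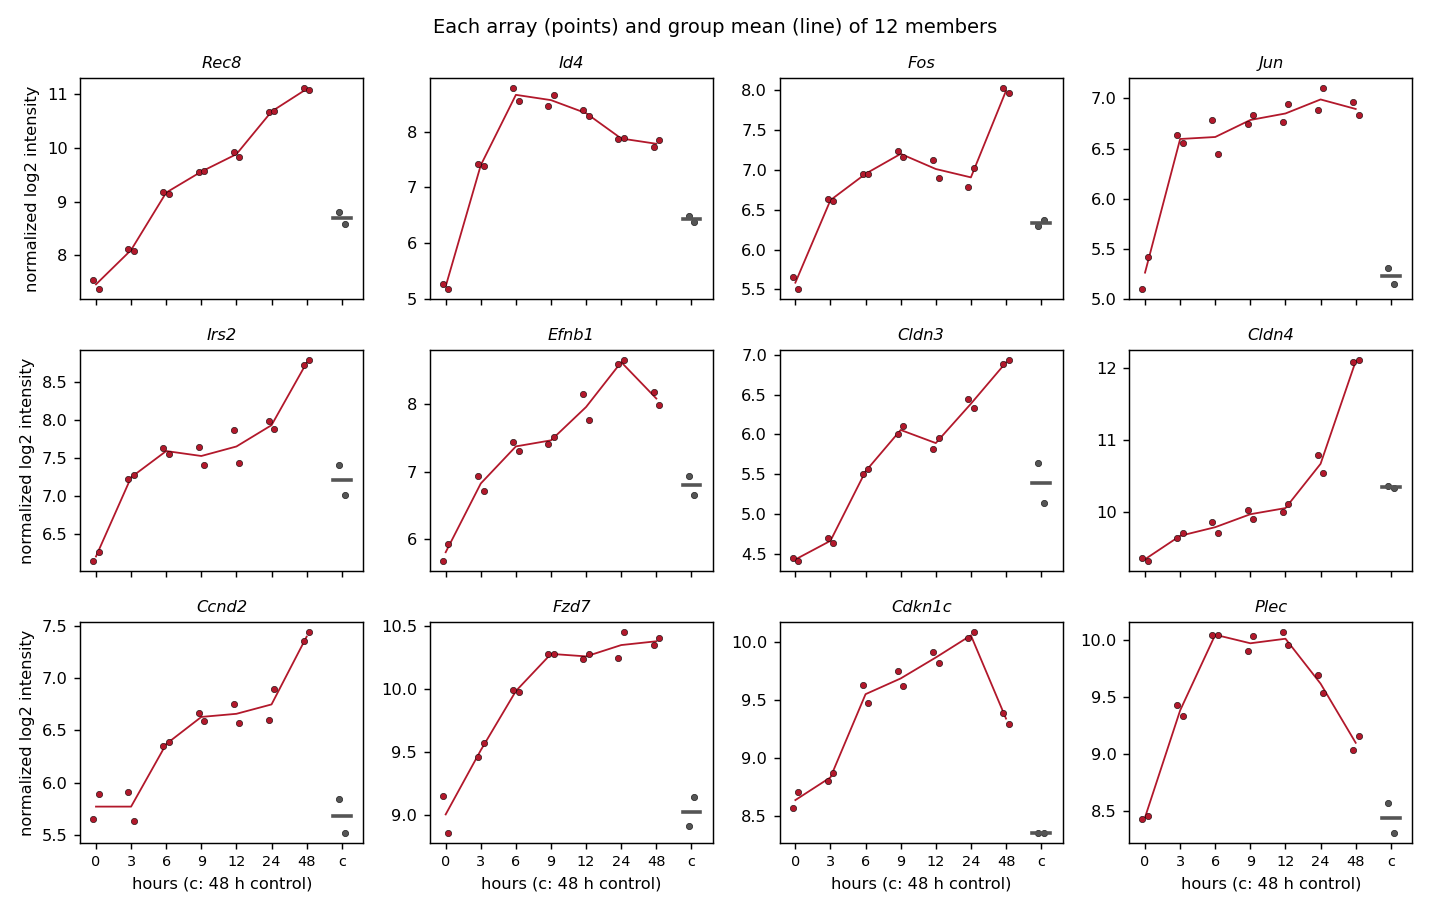
Normalized log2 intensity on each array (points) with group means (lines and bars) for 12 members over 0 to 48 h of induction and in the 48 h control (c). Id4, Efnb1, Plec and Cdkn1c pass through a maximum before 48 h, while Rec8 and Cldn4 are highest at 48 h.

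Lipid and small-molecule metabolism was a further group. Lpl encodes lipoprotein lipase, which frees fatty acids from lipoproteins, and averaged 8.12 at 0 h, 8.99 by 9 h, 9.30 by 24 h and 10.45 by 48 h, against 9.69 in the 48 h control, with an SD of at most 0.16 in any group (n = 2 each). It rose by 0.86 ± 0.10 between 3 and 9 h (limma adjusted p = 0.000253), and by 24 h it had covered 50.8% of its 48 h difference. Plin2, a lipid droplet coat protein gene, ended 1.31 above 0 h, and its 3 to 9 h change of 0.51 ± 0.16 did not pass (limma adjusted p = 0.0828). Cyp27a1, a mitochondrial sterol hydroxylase gene, ended 2.18 above 0 h, and both of its other probes that passed the filter lay alike, at 2.02 and 2.47. Cyp1b1, a cytochrome P450 gene, was instead mostly in place by 3 h, at 0.92 then and 1.10 at 48 h.

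Arsa, the lysosomal arylsulfatase A gene, stood 2.15 ± 0.14 above 0 h at 48 h and 1.06 at 24 h. Sat2, a gene of the spermidine and spermine acetyltransferase family, was not well above background at 0 h and was at least 2.83-fold higher at 48 h. Aldh3b1, an aldehyde dehydrogenase gene, was at least 2.55-fold higher on the same basis. Its other probe that passed the filter, detected on 13 arrays, lay only 0.39 above 0 h at 48 h (log2) and 0.23 above the control. Gyg (glycogenin, the primer of glycogen), Rimkla (an amino acid ligase), Extl2 (a glycosyltransferase) and Hdc (histidine decarboxylase, which makes histamine) ended 1.19, 1.30, 0.96 and 0.62 above 0 h. Of these 4, Rimkla and Hdc rose between 3 and 9 h (limma adjusted p = 0.0433 and 0.00282).

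Further members act in membrane traffic, translation, the cytoskeleton and signalling. Stx3, a syntaxin of the apical plasma membrane, read 6.72 and 6.69 at 0 h, 7.03 and 7.02 at 3 h, 7.42 and 7.37 at 6 h, 7.44 and 7.51 at 9 h, 7.55 and 7.65 at 12 h, 8.07 and 8.15 at 24 h, 9.18 and 9.19 at 48 h, and 8.57 and 8.62 in the 48 h control, and its control had covered 76.4% of the 48 h difference. Of its other probes, 1 lay 2.02 above 0 h at 48 h and 1 lay at -0.16. Cadps2, which primes dense-core vesicles, and Nsmf, a synapse-to-nucleus signalling gene, ended 1.06 and 2.15 above 0 h without passing between 3 and 9 h. Eif4e3, a member of the cap-binding eIF4E family, rose by 0.66 ± 0.12 between 3 and 9 h (limma adjusted p = 0.0066) and ended 2.02 above 0 h. Pdlim3 and Csrp1, both LIM-domain proteins of the actin cytoskeleton, lay 0.41 and 0.44 above 0 h at 3 h, first passed 0.6 at 12 h, and ended 1.59 and 1.47 above 0 h. Klhl17, an actin-binding kelch protein gene, and Fbxo25, a ubiquitin ligase adaptor gene, rose between 3 and 9 h by 0.63 ± 0.11 and 0.32 ± 0.09 (limma adjusted p = 0.00395 and 0.0434).

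Nrep, a gene linked to neuronal regeneration, ended 1.63 above 0 h, Fam214a 1.38 and Flywch2 0.94. Gbp2, an interferon-induced GTPase gene, was not well above background at 0 h and was at least 1.85-fold higher at 48 h. Among the 6 probes without a symbol, 5 rose between 3 and 9 h. ILMN_2997406 had its control at the 0 h level, at -0.06, against 1.54 at 48 h. ILMN_3118071 and ILMN_1220244 peaked at 24 h, at 2.13 and 2.05, before lower 48 h values of 1.06 and 0.73. ILMN_2819558, ILMN_3084954 and ILMN_1242629 ended 1.51, 1.47 and 1.30 above 0 h. Of 16 further probes of member genes that passed the detection filter, 14 lay above 0 h at 48 h and 15 above the control. At 12 h only those of Plec, at 1.29, and Wfdc2, at 0.70, lay at least 0.6 above 0 h. The lowest at 12 h, for Nsmf, lay at -0.02, so most did not show the early rise of the members. Another 21 probes were detected on 0 arrays.

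The 48 h control separated members that also moved there from members that did not. The median difference from 0 h was 1.47 at 48 h of induction and 0.65 in the 48 h control, so the median member had covered 42.7% of its 48 h difference in the control, with a range of -39.8% for Cdkn1c to 81.5% for Grina. The gap of 48 h over its control had a median of 0.76 and ran from 0.41 to 2.40, the last for Rec8. Both control arrays lay above both 0 h arrays for 50 members, where 35.1% of all probes tested did so, and below them for 1, where 38.8% did so. The rule itself bounded the control from below, so nothing is read from these counts. In 32 members the control lay at least 0.6 above 0 h.

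For 15 members the control mean lay within 0.3 of 0 h. They were Jun, Ccnd2, Fzd7, Cyp1b1, Tmem98, Klhl17, Cdkn1c, Sesn3, Plec, Pak3, Hdc, 1 probe of Anxa3 and 3 probes without a symbol. They include Plec and Cdkn1c, which were lower at 48 h than at 24 h, and Jun and Fzd7, whose means changed little after 9 h. Members nearest the gap limit were Bahd1, Extl2 and Flywch2 at 0.41 inside it, with Kcnk1 at 0.39, Slc46a3 at 0.38 and a second Wfdc2 probe at 0.38 outside. At the limit on the rise, Csrp1 at 0.60, Tmem98 at 0.61 and Fam214a at 0.61 lay inside, and Cmtm8 and Sort1 at 0.60 and a second Cyp27a1 probe at 0.59 outside. The limit on the control kept out 3 probes, for Pik3r3, Spen and Dyrk1b, with controls at -0.69, -0.50 and -0.33.

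**Figure D5:**
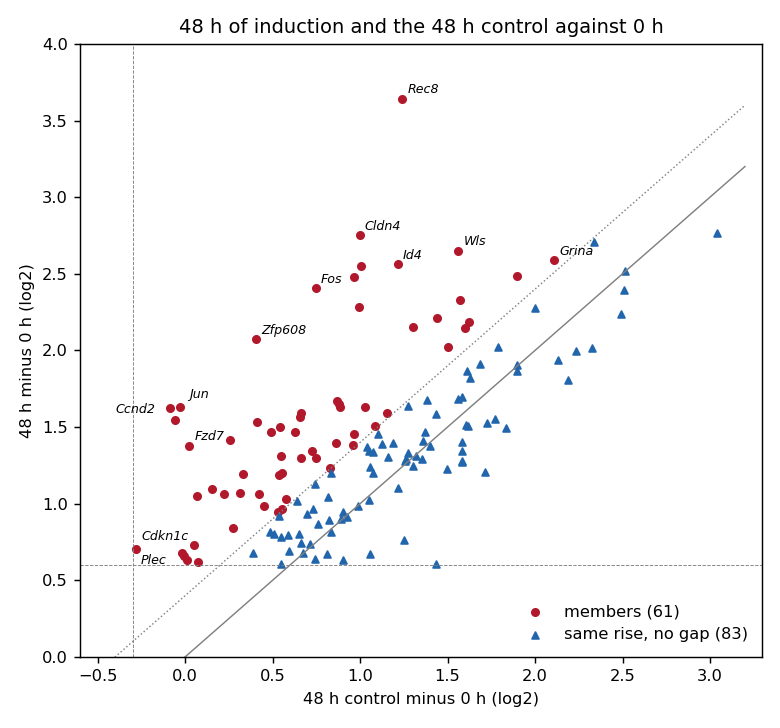
Log2 difference of 48 h minus 0 h (vertical) against 48 h control minus 0 h (horizontal) for the 61 members and 83 other probes. The 83 had a like rise but stood less than 0.4 above the control. Members lie at least 0.4 above the line of equal difference, with Rec8 highest, and 15 of them lie within 0.3 of 0 on the horizontal axis.

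The 83 other probes that met the same rise but stood less than 0.4 above the control were set beside the members. Their median difference from 0 h was 0.19 by 3 h, 0.52 by 6 h, 0.63 by 9 h, 0.74 by 12 h, 1.04 by 24 h and 1.29 by 48 h, and the control had covered 96.5% of the 48 h difference at the median. At 3 h 3 of the 83 had passed 0.6, against 12 of the 61 members. The time to 50% of the 48 h difference had a median of 8.76 h in members and 8.28 h in the 83 probes, with overlapping quartiles. In the tested steps 36.1% of members and 31.3% of the 83 probes rose between 3 and 6 h, and 55.7% and 61.4% rose between 3 and 9 h. The difference between these shares was not tested.

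Among 10 gene lists of the cell types and pathways at issue, members were on 1, the immediate early and stress list, through Fos and Jun. Of its 11 genes tested in the limma model, 7 were higher at 12 h than at 0 h and 1 lower, with a median of 0.74, when 7.16% of all probes were higher and 6.09% lower. At 48 h against the control 5 were higher and 0 lower (Fos, Jun, Junb, Egr1 and Hmox1), when 8.85% and 9.05% of all probes were. Junb, a further AP-1 part, and Egr1, a zinc-finger gene of the growth factor response, were not members, since their 48 h means lay -0.07 and -2.15 from 0 h, and Hmox1, which encodes heme oxygenase, stood at -1.01. The rule used both contrasts, so Fos and Jun had to be higher in them and nothing is read from their part of these counts.

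The other 9 lists held 0 members. Of 19 core pluripotency genes 0 were higher and 13 lower at 12 h than at 0 h. At 48 h 1 was higher and 15 lower than in the control, with a median of -0.61. Against 0 h, 2 of the 19 were higher and 9 lower at 48 h, and 10 higher and 6 lower in the control. Of 23 E2F targets 2 were higher and 2 lower at 48 h than in the control, with a median of 0.04. Of 11 p53 targets 0 were higher and 1 lower, and of 2 interferon genes 0 were called. Of 5 genes on the neural and ectoderm list 3 were higher and 0 lower, namely Nes and the keratin genes Krt8 and Krt18. Tubb3 and Map2 were not called. Nes stood 0.12 above 0 h at 48 h, with its control at -0.34. Krt8 and Krt18 stood 1.68 and 2.19 above 0 h, with controls at 0.49 and 0.93. With keratin genes among them, this count is not read as a neural rise. At 48 h against the control, 2 of 6 trophectoderm genes were higher and 0 lower, and of 5 epiblast genes 2 (Otx2 and Dnmt3b) and 0. At 48 h against 0 h, however, 0 of these 5 epiblast genes were higher and 5 lower, when 25.5% and 27.5% of all probes were. In the control against 0 h 0 were likewise higher and 5 lower, when 25.7% and 27.2% of all probes were. Against the control, 1 of 5 mesendoderm and endoderm genes was higher and 2 lower, and of 4 fibroblast genes 2 and 0. The median over all probes tested was near 0 in each comparison.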

How the data were processed

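Total RNA of 16 mouse embryonic stem cell samples was measured on single-colour Illumina bead arrays, 1 array per sample, in 8 groups of 2 taken from the sample titles. The authors deposited a linear, non-normalized intensity and a detection p-value for each of 25697 probes, per the file headers; all columns were matched to samples and 0 were left over. A second deposited table, per its values on a log2 scale with the same quantiles on every array, kept the rank order of the intensities and was used as an alternative. The submitters' processing notes name BeadStudio 3.2, RMA and lumi, with no role for each.

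Intensities were background corrected from the detection p-values, with an offset of 16, quantile normalized and taken to log2 (neqc, limma 3.58.1, R 4.3.3); the offset shrinks differences of dim probes. The 13974 probes detected (detection p-value under 0.05) on 2 or more arrays entered 1 limma model with a coefficient per group, and p-values were adjusted by Benjamini-Hochberg over all of them. Group differences carry the model's standard error, and "called" means an adjusted p under 0.05. Where a probe was not detected on both arrays of a group, the fold is a bound against the higher of its own signal and the lowest signal among detected probes on each array. With 2 arrays per group, the number of arrays limits precision. The analysis was tested on simulated data.

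The platform annotation, which can be old, gave 1 symbol for 23978 probes, several for 0 and none for 1719. The 25 members with the largest 48 h minus 0 h difference, plus members on the 10 gene lists (core pluripotency, epiblast, mesendoderm and endoderm, neural and ectoderm, trophectoderm, E2F targets, p53 targets, immediate early and stress, interferon, fibroblast), were to be named; other members named were chosen after their values were seen. Members, lists and tests were chosen with earlier results of these data known. Alternatives covered the background correction, offset, normalization, filter, the deposited log2 table, the variance model, the arrays fitted, the threshold, the replicate block and leaving out each array. Replicate numbers were checked for pairing through the correlation of deviations between groups, which ran from -0.07 to 0.29 over 28 pairs of groups and exceeded 0.1 in 16. As not every pair of groups exceeded 0.1 and the labels name no shared litter, batch or day, the numbers were not taken as pairs.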

Additional observations from a re-analysis of the deposited data

Results flagged for a closer look

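Cdkn1c, the cyclin-dependent kinase inhibitor gene, stood out because both 48 h arrays lay above both 0 h arrays while both 48 h control arrays lay below them. The 48 h mean was 0.70 above 0 h and the control mean was -0.28 from it, a gap of 0.98 (log2). The rule that chose the members used these contrasts, and the difference between the 48 h and control shifts was not tested.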

How the results depend on the processing

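Of 748 alternative values, 115 moved beyond the limits set and 0 changed direction. In the 575 values of single members, the 48 h minus 0 h difference stayed above 0 in all 575. The set itself depended on the processing: 61 members and 83 comparison probes became 53 (50 shared) and 55 with median scaling, 16 (15 shared) and 11 without background correction, 35 (33 shared) and 30 with an offset of 50, and 157 (61 shared) and 218 with the deposited log2 table. The median time to 50% of the 48 h difference, 8.76 h, was then 8.19, 10.3, 9.33 and 7.95 h. The median 48 h minus 0 h difference of the 25 named members, 2.18, was 1.18 without background correction, 1.64 with an offset of 50 and 2.51 with the deposited table. A smaller set follows from the offset and the uncorrected background shrinking differences; other causes were not tested.

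The count of members rising between 6 and 9 h, 0 as reported, was 4 without background correction, 3 with an offset of 50, 1 without the detection filter and 3 with a robust trended variance. With the replicate block it was 1, and the block left 24 members for 3 to 6 h and 36 for 3 to 9 h; the samples share only a number. The 3 to 6 h count of 22 was 10 when only the 3, 6 and 9 h arrays were fitted and 8 at an adjusted limma p under 0.01. Leaving out 1 array at a time gave 6 to 25 members for 3 to 6 h, 19 to 35 for 3 to 9 h, 0 to 0 for 6 to 9 h, 57 to 78 members and 77 to 102 comparison probes. The median time then ran from 8.17 to 9.35 h and the named median from 2.15 to 2.25. Dim probes have only bounds at 0 h, and 2 arrays a group limit the 6 to 9 h comparison.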
